A study of Rattus norvegicus with 34 samples.

Results

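*Bdnf*, *Cntf* and *Igf1* were the 3 classical neurotrophic factors among the 44 specific genes on a TaqMan microfluidic card, and all 3 were among the 41 genes tested. They were selected by name and not by a threshold on their values, although earlier results of these data were known at the time. Each was measured by quantitative PCR in whole retinal RNA of 23 male rats aged 9 weeks. The card has 1 well per gene and rat, and the quantification cycle (Cq) of a well is lower the more transcript it holds. None of the 69 wells of the 3 genes lacked a Cq. Each rat was 1 sample, and no technical repeat was used here.

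The 4 groups were as follows. Sprague Dawley rats (SD, n = 6) were uninjected wild-type controls. PKD rats (n = 6) were uninjected, and they were homozygous for a transgene that overexpresses a truncated polycystin-2 from the cytomegalovirus promoter, which is active in many cell types and is not restricted to the retina. The same transgene was carried by the clodronate-treated PKD rats (PKD + Clodronate, n = 5) and the control liposome-treated PKD rats (PKD + Controlliposomes, n = 6). Both treated groups received 3 µl of liposomes into the vitreous at 4 and 8 weeks of age. Clodronate liposomes are taken up by phagocytes and are used to deplete them. The labels also list clodronate-treated SD rats (SD + Clodronate) and saline-injected PKD rats (PKD + PBS), which were not analysed here. Without the saline-injected rats, effects of the injection and of the liposomes cannot be told apart in the control liposome-treated rats.

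Neurotrophic factors are secreted proteins that sustain neurons. Brain-derived neurotrophic factor (BDNF) signals through the receptor tyrosine kinase TrkB and supports retinal ganglion cells. Ciliary neurotrophic factor (CNTF) is a cytokine of the interleukin-6 family that signals through gp130 and STAT3, and in the retina it is known as a photoreceptor survival factor made and answered by Müller glia. Insulin-like growth factor 1 (IGF1) signals through its own receptor tyrosine kinase to the PI3K and Akt pathway, and in nervous tissue microglia are one of its sources.

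In RefSeq (assembly GRCr8), *Bdnf* lies at chr3:116619633-116670212 with 11 annotated transcripts, *Cntf* at chr1:219312512-219314535 with 1 and *Igf1* at chr7:24169608-24249446 with 9. The *Bdnf* assay carries the suffix s1, which the manufacturer gives to assays with primers and probe inside a single exon, so that genomic DNA can also be amplified. The *Cntf* and *Igf1* assays carry the suffix m1, for a probe across an exon junction. Whether genomic DNA contributed to the *Bdnf* signal was not tested.

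The Cq of each gene was subtracted from the mean Cq of 4 reference genes, which were 18S, *B2m*, *Mrpl19* and *Ywhaz*. The result is given on the log2 scale with the SD mean set to 0, so that a value of -1 is a halving. The mean Cq of the 4 reference genes was similar between groups, with means from 16.3 to 16.5. *B2m*, the light chain of MHC class I molecules, was not stable against the other 3 reference genes. It was higher than in SD rats by 0.69 ± 0.400 (SD, n = 6) in PKD rats, by 1.15 ± 0.536 (SD, n = 5) in clodronate-treated rats and by 1.04 ± 0.736 (SD, n = 6) in control liposome-treated rats. One SD rat (number 97) stood apart from the other SD rats in *Gfap*, the intermediate filament of reactive glia, at 1.80 against at most -0.055 in the others. The card held no photoreceptor or ganglion cell marker among its genes, so that the labelled tissue could not be checked for neurons. In RNA of a whole retina, fewer cells of a type and less RNA per cell cannot be told apart.

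*Bdnf* was lower in all 3 PKD groups than in SD rats, *Cntf* was higher in all 3, and *Igf1* passed the test in none of these comparisons. In PKD rats *Bdnf* was at 56.9% of the SD level and *Cntf* at 1.63-fold. No comparison among the 3 PKD groups passed the test for any of the 3 genes.

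**Figure D1:**
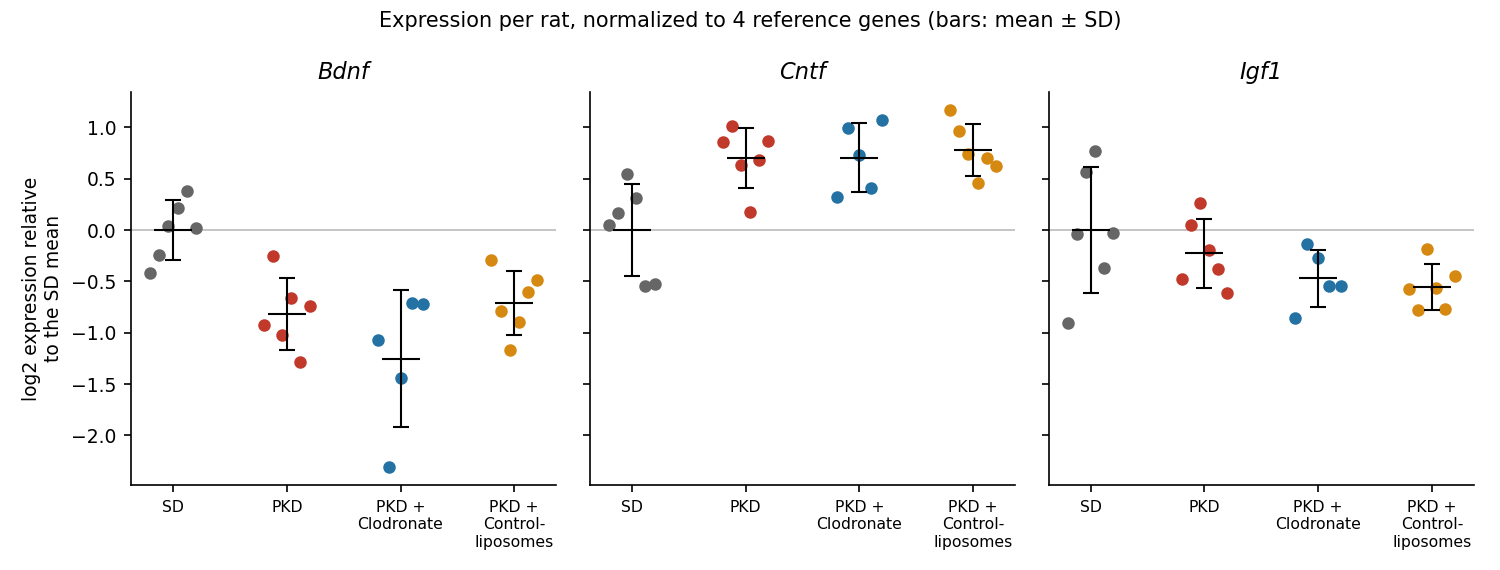
Expression of *Bdnf*, *Cntf* and *Igf1* in each of the 23 rats (points), on the log2 scale with the SD mean at 0, after normalization to 4 reference genes. Horizontal bars are group means and error bars are ± SD. *Bdnf* lies lower and *Cntf* higher in the 3 PKD groups than in SD rats, while the *Igf1* values of all groups lie within or close to the range of the SD rats.

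*Bdnf* ranged from -0.41 over a median of 0.030 to 0.38 in the 6 SD rats. In the 6 PKD rats it ranged from -1.28 over a median of -0.83 to -0.25. Of the PKD rats, 5 lay below every SD rat, and the groups overlapped through 1 PKD rat. The difference was -0.81 (SE 0.255, 95% confidence interval -1.34 to -0.29), with an adjusted p of 0.0121 by limma over the 41 genes and p = 0.00433 by a two-sided exact permutation test. Of the 41 genes tested, 36.6% passed the same threshold in PKD against SD rats, 14 higher and 1 lower, and *Bdnf* was the 1 gene called lower.

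The 5 clodronate-treated rats had *Bdnf* values of -1.07, -2.31, -1.44, -0.71 and -0.71. Each of these lay below every SD rat, and the second of them was the lowest of all 23 rats. *Bdnf* was at 42.0% of the SD level, a difference of -1.25 (SE 0.268, interval -1.80 to -0.70, limma adjusted p = 0.000335, exact permutation p = 0.00216, the smallest that 5 against 6 rats allow). Without this lowest rat the difference from SD rats was -0.99. Of the genes tested, 51.2% passed the threshold in this comparison, 19 higher and 2 lower, and 22% had groups that did not overlap.

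In the 6 control liposome-treated rats *Bdnf* ranged from -1.17 over a median of -0.70 to -0.29. Here too, 5 of the 6 lay below every SD rat. The level was 61.3% of that of SD rats, a difference of -0.71 (SE 0.255, interval -1.23 to -0.18, limma adjusted p = 0.0197, exact permutation p = 0.00433). In this comparison 63.4% of the genes passed the threshold, 23 higher and 3 lower. The comparisons of the 3 PKD groups with SD rats share the same 6 SD rats and are therefore not independent of each other.

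The raw cycles of *Bdnf*, before any reference gene was subtracted, showed the same order. In SD rats the Cq ranged from 24.9 to 25.5, and 5 of the 6 lay at 25.1 or less. It ranged from 25.4 to 26.6 in PKD rats, from 25.5 to 27.2 in clodronate-treated rats and from 25.6 to 26.2 in control liposome-treated rats. The highest SD rat was thus later than the earliest PKD rat, and both treated groups lay above all SD rats in raw Cq. The margin was narrow, at 25.52 in the earliest clodronate-treated rat against 25.46 in the highest SD rat. How many other genes separated in raw Cq was not counted. Raw Cq is not corrected for the amount of RNA of a rat. Over the 23 rats, Pearson's r of the raw *Bdnf* Cq was 0.58 with 18S, 0.47 with *Ywhaz*, 0.34 with *Mrpl19* and -0.42 with *B2m*.

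The call for *Bdnf* depended in part on *B2m*. Without *B2m* among the reference genes, the difference from SD rats was -0.64 in PKD rats (limma adjusted p = 0.0562), -0.96 in clodronate-treated rats (adjusted p = 0.00395) and -0.44 in control liposome-treated rats (adjusted p = 0.150). With *Mrpl19* and *Ywhaz* alone as reference genes, the value was -0.66 in PKD rats (adjusted p = 0.0778) and -0.29 in control liposome-treated rats (adjusted p = 0.356). The direction was the same under each of these settings.

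*Cntf* ranged from -0.55 over a median of 0.11 to 0.54 in SD rats, and the highest value was that of rat 97. In PKD rats it ranged from 0.18 over a median of 0.77 to 1.01. All 6 PKD rats lay above the SD mean and 5 lay above every SD rat. The difference was 0.71 (SE 0.225, interval 0.24 to 1.17, limma adjusted p = 0.0129, exact permutation p = 0.00866). Without SD rat 97 it was 0.81, with an adjusted p of 0.00334 by limma.

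The clodronate-treated rats had *Cntf* values of 0.32, 0.99, 0.74, 0.41 and 1.07. The group overlapped with the SD rats, as 3 of the 5 lay above every SD rat. *Cntf* was 1.63-fold higher than in SD rats, a log2 difference of 0.71 (SE 0.236, interval 0.22 to 1.19, limma adjusted p = 0.0140, exact permutation p = 0.0173). When limma was fitted to these 2 groups alone, the adjusted p was 0.0681.

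In control liposome-treated rats *Cntf* ranged from 0.46 over a median of 0.72 to 1.17, and 5 of the 6 lay above every SD rat. The log2 difference was 0.78 (SE 0.225, interval 0.31 to 1.24), or 1.71-fold, with a limma adjusted p of 0.00436 and an exact permutation p of 0.00433. Without SD rat 97 the differences of the clodronate-treated and control liposome-treated rats from SD rats were 0.82 and 0.88.

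The rise of *Cntf* lay close to that of the median gene of the card. The median log2 difference of all 41 genes tested against SD rats was 0.44 in PKD rats, 0.63 after clodronate and 0.75 after control liposomes. *Cntf* held the 16th, 19th and 19th place from the highest in these comparisons. It exceeded the median gene by 0.26, 0.073 and 0.023. *Bdnf*, by contrast, lay below the median gene by -1.25, -1.88 and -1.46, and held the 2nd, 2nd and 3rd place from the lowest.

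When the mean of the specific genes replaced the reference genes, the median of all genes shifted by -0.82, -0.88 and -1.05 in the same 3 comparisons. *Cntf* then changed sign, at -0.12, -0.18 and -0.27, and passed the threshold in none of the 3 comparisons (limma adjusted p of 0.678, 0.532 and 0.263). The direction of *Cntf* against SD rats thus held for each of the 6 sets of reference genes and turned only under this scaling. *Bdnf* remained lower under it, at -1.64, -2.13 and -1.75. The genes past the threshold were then 7 higher and 16 lower in PKD rats, 9 higher and 13 lower after clodronate, and 8 higher and 17 lower after control liposomes.

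**Figure D2:**
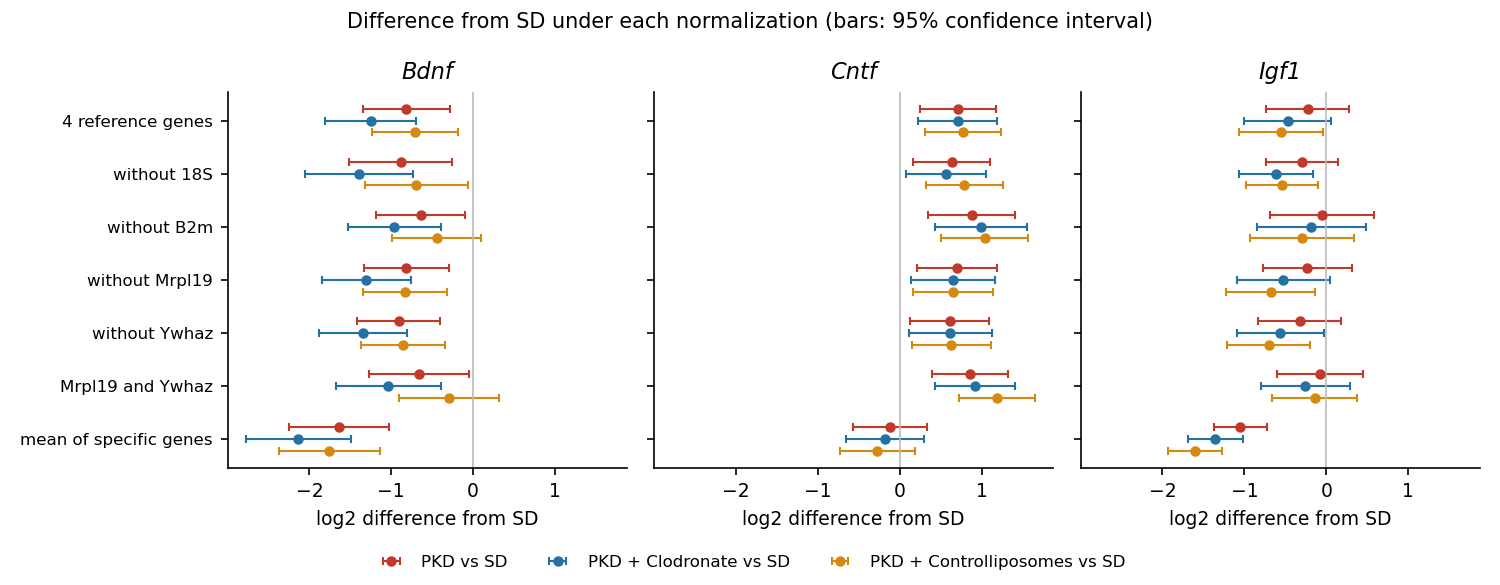
Log2 difference of each PKD group from SD rats (points, with 95% confidence intervals) under the reference genes used, under 5 other sets of them and under the mean of the specific genes. *Bdnf* lies below 0 in every setting. *Cntf* lies above 0 with every set of reference genes and at or below 0 with the mean of the specific genes, where *Igf1* lies between -1.05 and -1.60.

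*Igf1* varied most among the SD rats, which ranged from -0.90 over a median of -0.033 to 0.77 with an SD of 0.610. In PKD rats it ranged from -0.61 over a median of -0.29 to 0.27, so that every PKD rat lay inside the SD range. The difference of -0.23 (interval -0.74 to 0.28) did not pass the test, with a limma adjusted p of 0.560 and an exact permutation p of 0.437. Without SD rat 97 it was -0.11, and normalized to the specific genes it was -1.05 and passed (limma adjusted p = 5.6e-06).

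The clodronate-treated rats had *Igf1* values of -0.86, -0.13, -0.27, -0.54 and -0.55. All 5 lay below the SD mean and inside the SD range. The difference from SD rats was -0.47 (interval -1.005 to 0.063, limma adjusted p = 0.133, exact permutation p = 0.158). Without SD rat 93, the lowest of the SD rats, it was -0.65 and passed the threshold, with a limma adjusted p of 0.0246. It also passed without 18S as a reference gene (-0.61, adjusted p = 0.0255 by limma) and when normalized to the specific genes (-1.35).

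In control liposome-treated rats *Igf1* ranged from -0.78 over a median of -0.57 to -0.19. All 6 lay below the SD mean, and the spread of the group, with an SD of 0.219, was the smallest of the 4 groups. The difference from SD rats was -0.55 (SE 0.247, interval -1.06 to -0.045). It missed the threshold with a limma adjusted p of 0.0517, and the exact permutation p was 0.0606. The call depended on the processing, as it passed in 6 of 11 alternatives. These were without 18S (-0.54), *Mrpl19* (-0.68) or *Ywhaz* (-0.70) as a reference gene, the specific genes as reference (-1.60), empty wells at a Cq of 40, and an ordinary linear model. Among the fits with 1 rat left out, it passed without SD rat 93 (-0.73, limma adjusted p = 0.00735), without SD rat 100 (-0.63, adjusted p = 0.0411) or without the control liposome-treated rat with the highest *Igf1* (-0.63, adjusted p = 0.0418).

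The clodronate-treated rats were compared with both PKD control groups. Uninjected PKD rats also lacked the injections and the liposomes, so that the comparison with them does not isolate clodronate. Against uninjected PKD rats, *Bdnf* differed by -0.44 (interval -0.99 to 0.11, limma adjusted p = 0.472, exact permutation p = 0.201), and 2 of the 5 clodronate-treated rats lay below every PKD rat. Without the clodronate-treated rat with the lowest *Bdnf* the difference was -0.17. *Cntf* differed by 0.0013 (interval -0.49 to 0.49, adjusted p = 0.996 by limma), the smallest of the 18 differences of the 3 genes. *Igf1* differed by -0.24 (interval -0.78 to 0.29, adjusted p = 0.632 by limma). Of the 41 genes, 0% passed the threshold by limma, 5 had an unadjusted p under 0.05, and the exact permutation test gave 8 such genes and 0 after adjustment.

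Against control liposome-treated PKD rats, all 5 clodronate-treated rats lay below the mean of the controls in *Bdnf*, and 2 lay below each of them. The difference was -0.54 (interval -1.10 to 0.0069), with an unadjusted p of 0.0527 and an adjusted p of 0.360 by limma, and an exact permutation p of 0.0887. Without the same rat it was -0.28. *Cntf* differed by -0.069 (interval -0.56 to 0.42) and *Igf1* by 0.083 (interval -0.45 to 0.62), each with an adjusted p of 0.877 by limma. In this comparison 4.88% of the genes passed the threshold, the lower *Aif1* (-0.99) and *Itgam* (-0.81), both expressed by microglia.

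The control liposome-treated rats differed from uninjected PKD rats by 0.11 in *Bdnf* (interval -0.42 to 0.63), by 0.071 in *Cntf* (interval -0.39 to 0.53) and by -0.33 in *Igf1* (interval -0.84 to 0.18). None of these passed the threshold (limma adjusted p of 0.870, 0.870 and 0.460), and 2.44% of the genes did. For *Igf1*, 2 of the 6 control liposome-treated rats lay below every PKD rat, with an exact permutation p of 0.0758. Normalized to the specific genes, this difference was -0.55 and passed (limma adjusted p = 0.0359).

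**Figure D3:**
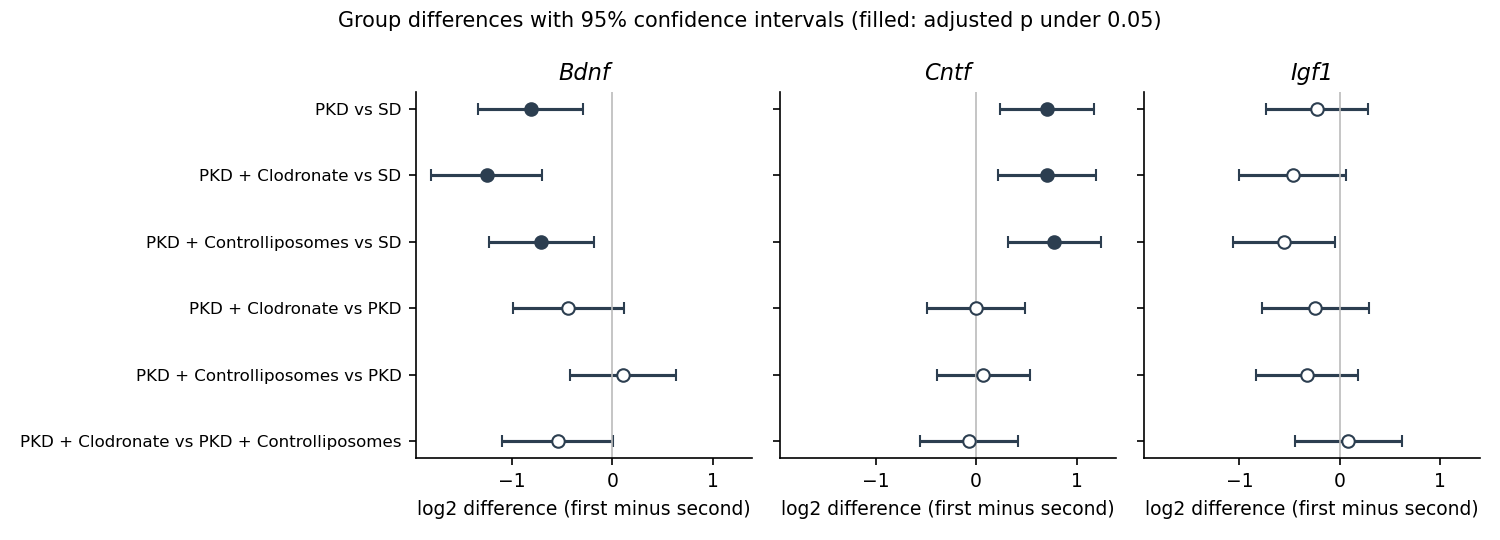
Log2 differences of the 6 comparisons (points, first group minus second) with 95% confidence intervals from limma. Filled points have an adjusted p under 0.05 and are the *Bdnf* and *Cntf* differences of the 3 PKD groups from SD rats. The intervals of the comparisons among the PKD groups span 0 for all 3 genes.

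From the highest to the lowest group mean, *Bdnf* followed the order SD, control liposome-treated, PKD and clodronate-treated rats. *Cntf* followed the order control liposome-treated, clodronate-treated, PKD and SD rats, and *Igf1* the order SD, PKD, clodronate-treated and control liposome-treated rats. In *Bdnf* and *Cntf* only the step next to the SD rats passed the test among neighbours of these orders, and in *Igf1* no step did.

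Since the reference genes affected the calls, the 3 genes were also set against each other within each rat, where the reference genes drop out. These differences were formed after the opposite directions of *Bdnf* and *Cntf* were known, and are given as a description without a test. *Cntf* was detected earlier than *Bdnf* in every rat. In SD rats the gap was 2.47, 2.41, 2.50, 2.10, 1.08 and 1.46 cycles. It ranged from 2.85 to 3.96 cycles in PKD rats and from 3.11 to 3.91 in control liposome-treated rats, and was 3.40, 5.31, 4.18, 3.13 and 3.79 in clodronate-treated rats. No rat of the 3 PKD groups overlapped with the SD rats.

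Relative to SD rats, the ratio of *Cntf* to *Bdnf* was 2.87-fold in PKD rats, 3.88-fold in clodronate-treated and 2.79-fold in control liposome-treated rats. On the log2 scale this was 1.52 ± 0.402 (SD, n = 6), 1.96 ± 0.853 (SD, n = 5) and 1.48 ± 0.299 (SD, n = 6). Without the rat with the lowest *Bdnf* the value of the clodronate-treated rats was 1.62. Among the 820 pairs of tested genes, 22.3% separated PKD from SD rats without overlap in the same way, 30.2% separated clodronate-treated and 27.2% control liposome-treated rats.

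*Igf1* minus *Bdnf* overlapped with the SD rats in all 3 groups, with means of 0.59 ± 0.426, 0.78 ± 0.892 and 0.15 ± 0.455 on the log2 scale in PKD, clodronate-treated and control liposome-treated rats. *Cntf* minus *Igf1* was higher than in SD rats by 0.93 ± 0.472, 1.18 ± 0.264 and 1.33 ± 0.369. Of these, the clodronate-treated rats did not overlap with the SD rats, but only narrowly. Their lowest value was 0.954 against 0.948 in the highest SD rat, and the lowest control liposome-treated rat was at 0.934. Of the 820 pairs of tested genes, 30.2% separated clodronate-treated from SD rats without overlap. The ratio of *Cntf* to *Igf1* was 1.91-, 2.26- and 2.51-fold that of SD rats.

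**Figure D4:**
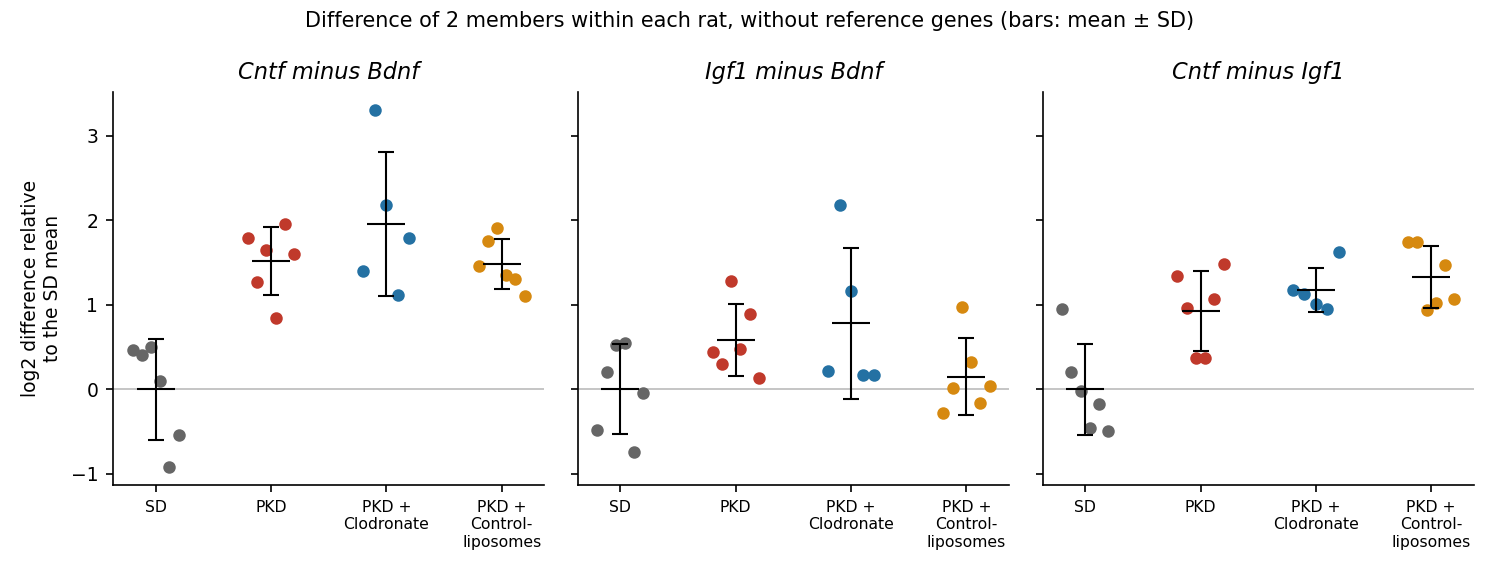
Differences between 2 of the 3 genes within each rat (points), on the log2 scale with the SD mean at 0 and without reference genes. Horizontal bars are means and error bars are ± SD. *Cntf* minus *Bdnf* lies above all SD rats in each PKD group, from 0.84 to 3.31 against at most 0.50.

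Within the groups, *Bdnf* showed little correlation with the other 2 genes, and that of *Cntf* with *Igf1* was higher. Over the deviations of the 23 rats from their group means, Pearson's r was -0.086 between *Bdnf* and *Cntf*, -0.043 between *Bdnf* and *Igf1* and 0.33 between *Cntf* and *Igf1*. Normalized to the specific genes, r between *Bdnf* and *Cntf* was 0.28. These values share the reference genes and the card of each rat and are given as a description.

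Of the other 40 genes tested, those most like *Igf1* over the 23 rats were *Stab1* (r = 0.56), a scavenger receptor, *Cd74* (r = 0.52), the invariant chain of MHC class II, and *C5ar1* (r = 0.51), the receptor of complement C5a. Within the groups r rose to 0.75, 0.79 and 0.85, against a median of 0.47 over the other 40 genes. In the 17 PKD rats alone, it was 0.70, 0.67 and 0.79. Without the 2 rats farthest from the median in *Igf1* the values were 0.55, 0.73 and 0.73. Normalized to the specific genes instead they were 0.52, 0.31 and 0.63, so that the likeness to *Cd74* was the one most dependent on the normalization. The gene least like *Igf1* was *Lcn2*, which codes for lipocalin 2 (r = -0.49 over all rats, -0.24 within groups). The within-group value changed sign to 0.25 in the 17 PKD rats and to 0.31 without the same 2 rats. Normalized to the specific genes it was -0.49.

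**Figure D5:**
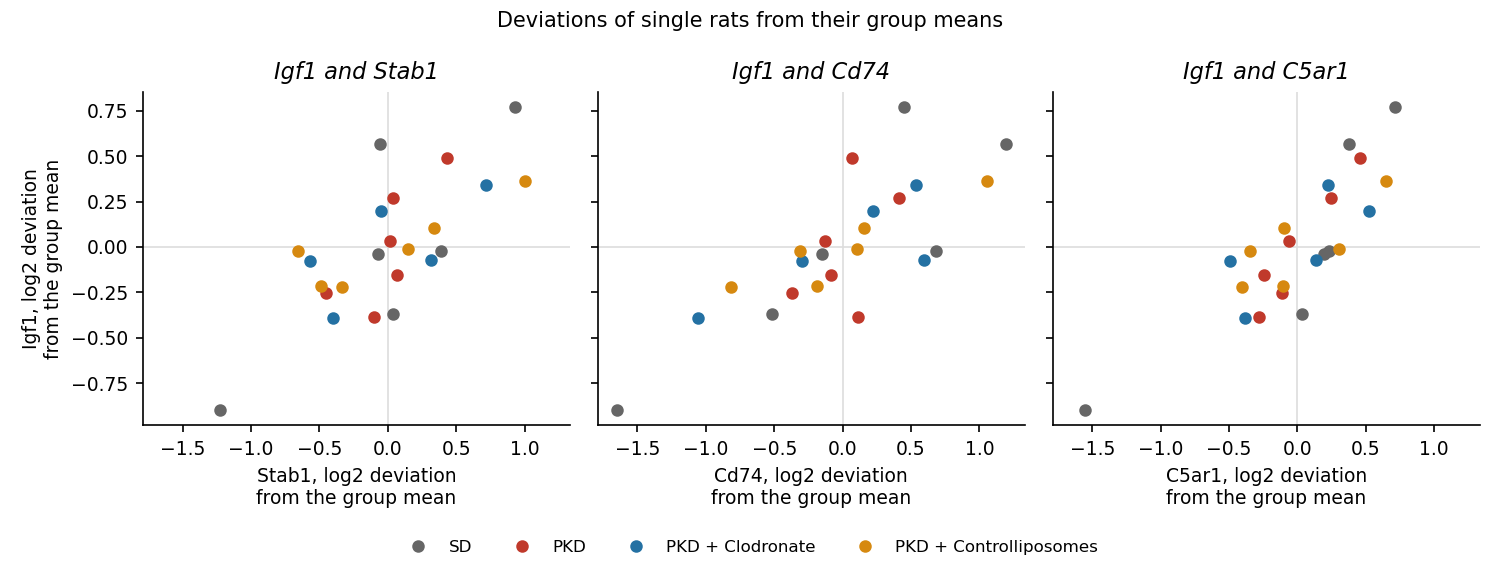
Deviation of *Igf1* from its group mean against that of *Stab1*, *Cd74* and *C5ar1* in the 23 rats (points, coloured by group), on the log2 scale. Rats above their group mean in *C5ar1* tend to lie above it in *Igf1*, with r = 0.85 within groups, and SD rat 93 lies lowest in all 4 genes.

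*Cntf* was most like *Gfap* (r = 0.80), *Chi3l1*, which codes for a secreted chitinase-like protein of reactive glia (r = 0.79), and *Fgf2*, the gene of basic fibroblast growth factor (r = 0.76). These values were largely set by the difference between SD and PKD rats, and within the groups they were 0.51, 0.53 and 0.43, against a median of 0.17. In the 17 PKD rats they were 0.36, 0.36 and 0.34. Normalized to the specific genes, the within-group values were 0.19, 0.51 and 0.095, so that those of *Gfap* and *Fgf2* depended on the normalization. *Bdnf* was the gene least like *Cntf* (r = -0.51 over all rats, -0.086 within groups, and 0.28 within groups when normalized to the specific genes).

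*Bdnf* was most like *Tnf*, which codes for tumor necrosis factor, with r = 0.50 over all rats and 0.64 within groups, against medians of -0.40 and -0.099 over the other genes. The next were *Fcer2* (r = 0.32 in 22 rats), the low-affinity IgE receptor, and *Il18* (r = 0.31), a cytokine. Within groups these were -0.10 and 0.20. The least like *Bdnf* was *Tnfrsf12a*, the receptor of the cytokine TWEAK, with r = -0.72 over all rats and -0.31 within groups. The latter was -0.66 in the 17 PKD rats alone and -0.032 without the 2 rats farthest from the median in *Bdnf*. It turned to 0.20 when normalized to the specific genes. For *Tnf* the same settings gave 0.65, 0.53 and 0.74.

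The other secreted growth factors on the card were *Fgf2*, *Vegfa*, *Pgf*, *Edn2*, *Tgfb1* and *Tgfb2*. In PKD against SD rats 2 of the 6 rose and 0 fell, namely *Fgf2* by 3.13 and *Edn2*, which codes for the photoreceptor stress signal endothelin 2, by 4.60. The differences of *Cntf* and *Bdnf* were thus small beside these. In clodronate-treated rats *Fgf2* (2.45), *Edn2* (4.23) and the placental growth factor gene *Pgf* (1.03) were higher than in SD rats. In control liposome-treated rats *Fgf2* (2.73), *Edn2* (4.75) and *Pgf* (0.71) were higher, and *Vegfa*, the gene of vascular endothelial growth factor A, was lower (-0.66). The median of the 6 genes was 0.27, 0.83 and 0.57, beside 0.44, 0.63 and 0.75 over all genes tested. The share of all genes tested that passed in either direction was 36.6%, 51.2% and 63.4%.

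Genes on the gp130 and STAT3 axis through which CNTF signals were *Il6*, *Socs3*, *Gfap*, *Serpina3n*, *Lcn2* and *Timp1*, although most of these respond to other cytokines as well. In PKD rats 4 of the 6 were higher than in SD rats and 0 lower. *Socs3*, the feedback inhibitor of this axis, was higher by 4.22, *Serpina3n* by 4.15, *Gfap* by 2.62 and *Lcn2* by 2.09. *Timp1* was added in clodronate-treated rats (1.13), and *Timp1* (1.53) and *Il6* (1.47) in control liposome-treated rats, so that 5 and 6 of the 6 passed. The median of the 6 genes was 2.35, 2.47 and 2.73 in the 3 groups, beside 0.44, 0.63 and 0.75 over all genes tested. Of all genes tested, 36.6%, 51.2% and 63.4% passed in either direction. Of both lists, 0 genes passed the threshold by limma in any comparison among the PKD groups. By the exact permutation test without adjustment, *Fgf2* had the smallest p of both lists in each treated group against uninjected PKD rats. It differed from them by -0.68 after clodronate and by -0.40 after control liposomes. Each exact permutation p was 0.00216, the smallest that these group sizes allow. The limma adjusted p of *Fgf2* was 0.391 and 0.460 there. Between the treated groups the exact permutation p of *Fgf2* was 0.186, and *Edn2* had the smallest of both lists at 0.0281.

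Of the microglia and macrophage markers *Aif1*, *Itgam*, *Cd74*, *Tyrobp* and *Trem2*, 2 of 5 were higher in PKD than in SD rats (*Itgam* by 0.83 and *Tyrobp* by 0.85), 2 of 5 in clodronate-treated rats and 3 of 5 in control liposome-treated rats, beside 36.6%, 51.2% and 63.4% of all genes tested. *Aif1* (0.12), *Cd74* (-0.11) and *Trem2* (-0.34) did not pass in PKD rats. The median of the 5 markers was 0.12, 0.43 and 0.77 in the 3 groups, beside 0.44, 0.63 and 0.75 over all genes. The mean of the 5 markers ranged from -0.74 to 0.70 in SD rats, from -0.018 to 0.51 in PKD rats, from -0.18 to 0.75 in clodronate-treated rats and from 0.61 to 1.19 in control liposome-treated rats. None of the 5 lacked a Cq in any rat. *Gfap*, which marks reactive Müller glia and astrocytes, ranged from -0.84 to 1.80 in SD rats, from 2.49 to 2.83 in PKD rats, from 2.33 to 3.14 in clodronate-treated rats and from 2.65 to 3.33 in control liposome-treated rats. The part of either cell type in the levels of *Bdnf*, *Cntf* and *Igf1* was not tested.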

How the data were processed

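Retinal RNA was extracted by the authors with TRIzol, reverse transcribed, pre-amplified for 14 cycles and run on microfluidic cards with 48 wells, for at most 40 cycles. The authors deposited the Cq values per rat as the instrument software gave them, without normalization; this table was used here. A second deposited table holds the authors' own fold changes between groups and was not used. The table has 34 columns of rats, named by animal number. The labels do not carry these numbers, and 23 columns were assigned to groups through the sample list of the study. The other 11 columns were not assigned to a group here and were not used. Of 1104 wells, 57 had no Cq, and these were left out. Cq values of all genes ranged from 5.53 to 35.2, and those of *Bdnf*, *Cntf* and *Igf1* from 20.9 to 27.2.

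Expression was the mean Cq of 4 reference genes minus the Cq of the gene, which is a log2 value if amplification is complete. Genes with at least 3 Cq values in each group (41 of 44) were fitted with limma 3.58.1 in R 4.3.3 (lmFit and eBayes, 4 groups, no covariate), with Benjamini-Hochberg adjustment over 41 genes at 0.05. Two-sided exact permutation tests over rats were added. Rats are separate animals. The fit was tested on simulated data.

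The 3 genes and the gene lists were chosen with earlier results of these data known. Named besides were, for each of the 3, the 3 tested genes with the highest and the 1 with the lowest Pearson r over 23 rats, and listed genes that passed the threshold. The alternatives were other reference genes, the mean of the specific genes, only genes with a Cq in every rat, empty wells at a Cq of 40, a fit of the 2 groups compared, an ordinary linear model, the permutation test across genes, and each rat left out in turn. Raw Cq ranges, the count over gene pairs and the correlations in subsets of rats were added after the data were seen.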

Additional observations from a re-analysis of the deposited data

How the results depend on the processing

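*Bdnf* in clodronate-treated against SD rats passed the threshold in all 11 alternatives and in all 11 fits without 1 rat. *Bdnf* in PKD against SD rats did so in 9 of 11 and 12 of 12, and *Cntf* in PKD, clodronate-treated and control liposome-treated against SD rats in 10, 9 and 10 of 11 and whichever rat was left out.

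Without *B2m*, *Bdnf* missed it in PKD (-0.64) and control liposome-treated rats (-0.44) against SD rats, and with *Mrpl19* and *Ywhaz* alone likewise (-0.66 and -0.29); in that setting *Igf1* in clodronate- against control liposome-treated rats was -0.11. Without 18S, *Bdnf* in control liposome-treated against SD rats was -0.69 (adjusted p = 0.0506 by limma), *Igf1* after clodronate and after control liposomes passed against SD rats at -0.61 and -0.54, *Cntf* in clodronate-treated against PKD rats was -0.069 and *Igf1* in clodronate- against control liposome-treated rats -0.073. Without *Mrpl19*, *Igf1* in control liposome-treated against SD rats passed at -0.68, *Bdnf* in control liposome-treated against PKD rats was -0.014, and *Cntf* against PKD rats was -0.048 after clodronate and -0.052 after control liposomes, and 0.0037 between the 2 treated groups. Without *Ywhaz*, *Igf1* in control liposome-treated against SD rats passed at -0.70. With empty wells at a Cq of 40 or by the ordinary linear model it passed at -0.55 (adjusted p of 0.0481 and 0.0434). In the fit of 2 groups, *Cntf* in clodronate-treated against SD rats missed it at 0.71.

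With the mean of the specific genes, *Cntf* was -0.12, -0.18 and -0.27 in PKD, clodronate-treated and control liposome-treated against SD rats, -0.057 and -0.15 in the treated groups against PKD rats and 0.097 between the treated groups. *Igf1* passed at -1.05, -1.35 and -1.60 against SD rats and at -0.55 in control liposome-treated against PKD rats, and *Bdnf* in the latter comparison was -0.12. The causes were not tested.

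With 1 rat left out at a time, *Bdnf* in control liposome-treated against SD rats ranged from -0.79 to -0.61 and missed the threshold without the rat of this group with the lowest *Bdnf* (adjusted p = 0.0510 by limma). Against SD rats *Igf1* ranged from -0.65 to -0.32 after clodronate and from -0.73 to -0.40 after control liposomes. Against PKD rats *Cntf* ranged from -0.10 to 0.098 after clodronate and from -0.035 to 0.13 after control liposomes, and from -0.16 to 0.027 between the treated groups, where *Igf1* ranged from -0.0016 to 0.18.

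The number of genes past the threshold in PKD against SD rats was 15, and 23 with the mean of the specific genes. In clodronate-treated against PKD rats it was 0, and 2 with that mean and 1 with empty wells at 40. Between the treated groups it was 2, 0 without *B2m*, 1 without *Mrpl19*, and 0 to 3 with 1 rat left out. In control liposome-treated against PKD rats it was 1, and 0 to 5 over the alternatives.

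No paired analysis was possible because the columns carry animal numbers and not the replicate numbers of the labels. Groups of 5 or 6 rats and single wells limit the precision, and log2 differences assume complete amplification.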
